A study of Mus musculus with 4 samples.

Results

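The genes described here are the solute carriers (Slc genes) that gave a clear signal in mDCT cells, grouped by what they carry. A gene qualified if its symbol has the form of a numbered Slc family member and its brightest probe set had a mean signal of at least 200 over the 4 arrays. Of 334 such symbols on the array, 129 qualified and 201 lay below the level. A further 4 genes were left out by name: Slc12a3 and Slc8a1, which also lay below it, and Slc2a1 and Slc7a11, which did not. The level was thus used to choose the members and is given as a description only.

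mDCT cells are immortalised murine cells derived from the kidney's distal convoluted tubule, where salt reabsorption comes under the control of aldosterone. Every culture, controls included, had been transfected to overexpress human mineralocorticoid receptor (MR), the aldosterone receptor, carrying a FLAG tag, so none had the cells' own receptor alone. At 48 h a culture received either the MR antagonist spironolactone (5 µM) or vehicle, and hormone or vehicle followed after another 2 h and was left on for 3 h. With 1 array per treatment, the arms were vehicle (ethanol), aldosterone at 1 nM, aldosterone at 100 nM, and spironolactone followed by aldosterone at 100 nM. No culture received spironolactone alone, and the share of cells that took up the plasmid is not known here. The array with both agents is called the spironolactone array.

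Solute carriers are membrane proteins that move ions, nutrients and metabolites by facilitated diffusion, exchange or co-transport. Those of the plasma membrane supply the cell, and those of organelles stock the Golgi, lysosome and vesicles. Most of the SLC25 family joins the mitochondrial matrix to the cytosol. In the distal nephron the thiazide-sensitive cotransporter Slc12a3 carries sodium across the apical membrane, and aldosterone is known to act on it and on the sodium channel. Most other carriers in such cells serve general metabolism.

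Arrays had been brought to a common level before deposit: their trimmed means, without the lowest and highest 2% of values, were all 500.003. Among the 8628 genes with a mean signal of at least 200, the correlation of log2 signals between arrays lay between 0.994 and 0.995. Precision is limited by the number of arrays. No treatment was replicated, so the spread between cultures is unknown and no test was made. Of 7 defining genes of the distal convoluted tubule found on the array, 1 (Wnk1) reached a signal of 200. Slc12a3 itself had signals of 3.93, 17.2, 12.1 and 4.35 with ethanol, 1 nM, 100 nM and spironolactone. Pvalb, Trpm6, Calb1, Egf and Cnnm2 also stayed below 200 on average, so most defining markers of the labelled cell type were low in these cells. Of the markers of proximal tubule, thick limb, collecting duct, intercalated cells, fibroblasts, endothelium and leukocytes, only Lrp2, an endocytic receptor of the proximal tubule, had a mean signal above 200 (516).

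Carriers listed as typical of nephron segments were likewise mostly low. The list includes Slc12a3 of the distal convoluted tubule, so it is not confined to other segments. Of 17 segment carriers, 2 reached the level and are members: Slc4a4, a sodium bicarbonate cotransporter, and Slc41a1, a magnesium transporter. The loop cotransporter Slc12a1 (mean signal 19.7), the phosphate cotransporter Slc34a1 (58.2), the glucose cotransporter Slc5a2 (64.7) and the anion exchangers Slc4a1 (14.6) and Slc26a4 (10.2) did not. The remaining segment carriers had mean signals from 5.56 to 133.

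Most members barely differed between the 4 arrays. The median member had a highest signal 1.14-fold its lowest, against 1.13-fold over all 8628 genes. In 104 of the 129 members (80.6%) that range stayed under 1.25-fold, where 81.2% of all genes did. In 40 (31%) it stayed under 1.1-fold, against 34.5% of all genes. The range stayed under 1.5-fold in 121 members (93.8%, against 96.9% of all genes) and under 2-fold in 128 (99.2%, against 99.7%). The steadiest was Slc35e3, a relative of the nucleotide sugar carriers, with signals of 1310.04, 1308, 1297 and 1297 in the order ethanol, 1 nM, 100 nM and spironolactone. The zinc exporter subunit Slc30a5 had 1850, 1849, 1876 and 1833, and the folate carrier Slc19a1 had 1236, 1209, 1205 and 1198. No treatment stood apart from the others in any of these probe sets. The second probe set of Slc19a1 (mean signal 718) read 669, 660, 783 and 769. It was higher than ethanol by 0.23 with 100 nM and by 0.20 with spironolactone on the log2 scale.

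The width of the range followed the signal level. Of the 30 members with a mean signal from 200 to 400, 15 spanned at least 1.25-fold (50%, against 46.6% of all genes at that level). Of the 52 from 400 to 1000, 9 did (17.3%, against 23.3%). Of the 47 above 1000, only 1 did (2.13%, against 6.48%): Slc33a1, the carrier of acetyl-CoA into the endoplasmic reticulum. All 8 members that spanned 1.5-fold had a mean signal under 1000, and 6 of them under 400. Members were dimmer than the genes they are set against, with a median mean signal of 676 against 1053 over all genes. Shares pooled over all levels are therefore not matched for signal.

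**Figure D1:**
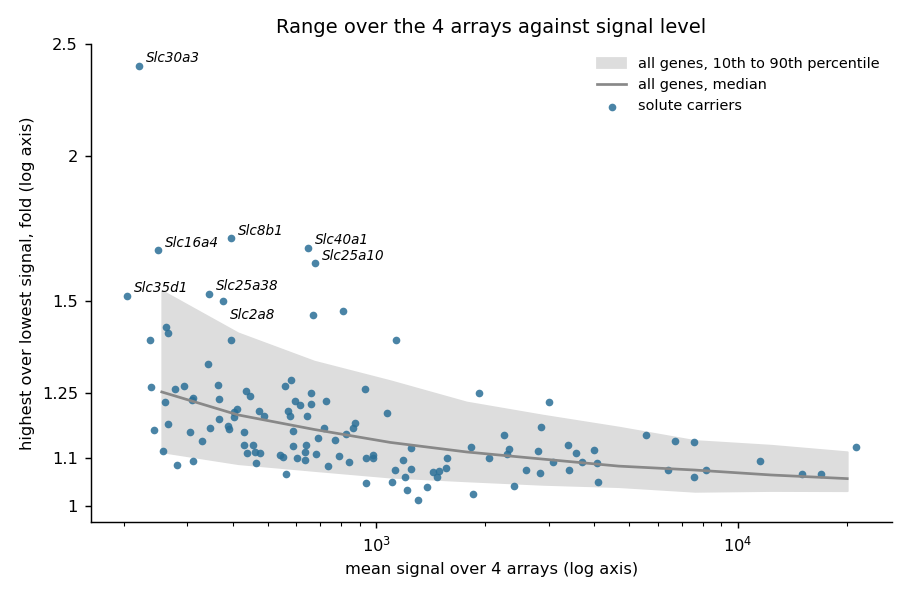
Highest over lowest signal of the 4 arrays against mean signal, both on log axes, for the 129 solute carriers (points) and for all 8628 genes at the same level (line, median; band, 10th to 90th percentile). The 8 named members spanned at least 1.5-fold, and all of them lie below a signal of 1000.

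The higher dose was set against ethanol first. Past 1.5-fold were 3 of 129 members, where 0.927% of all genes passed in either direction: 1 was higher (0.464% of all genes) and 2 were lower (0.464%). The median difference over members was -0.01 on the log2 scale, as over all genes (-0.01). The 3 genes were Slc35d1, Slc2a8 and Slc16a4, and the first of them is a member only through its 100 nM array. Since RNA came from whole cultures, less RNA per cell and fewer expressing cells cannot be told apart.

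Slc35d1 carries UDP-glucuronic acid and UDP-N-acetylgalactosamine into the endoplasmic reticulum for chondroitin sulphate synthesis. Its signals were 168 with ethanol, 224 with 1 nM, 254 with 100 nM and 183 with spironolactone. The 2 arrays with aldosterone alone were the high ones, and 100 nM was 1.52-fold above ethanol. Slc35d1 was the dimmest member and reached the level of 200 only through those arrays: its mean over the 3 arrays other than 100 nM was 190.1, so a difference of this direction was favoured by the choice of members. Its other probe set, at a mean signal of 51.3, differed by -0.15 between 100 nM and ethanol.

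Slc2a8 encodes GLUT8, a glucose transporter held mostly on intracellular membranes. Its only probe set read 444 with ethanol, 365 with 1 nM, 296 with 100 nM and 419.7 with spironolactone. The lowest signal was that of 100 nM, 1.5-fold below ethanol, and the spironolactone array lay near ethanol (a log2 difference of -0.08). The gene was picked by its 100 nM signal, so the nearness of spironolactone to ethanol is no separate result. Whether spironolactone reversed a difference was not tested.

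Slc16a4 is an orphan member of the monocarboxylate transporter family, with no settled substrate. Its signals were 306, 254, 184 and 268 in the order ethanol, 1 nM, 100 nM and spironolactone. It was 1.66-fold lower with 100 nM than with ethanol and lower there than on every other array by at least 1.25-fold. Its dimmer probe set (mean signal 43.5) went the other way, with a log2 difference of 0.42.

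The start regions of these 3 genes are shown because the activated MR binds DNA, and because these are the members past 1.5-fold for 100 nM aldosterone. Each covers 250 bases before and 50 after the transcription start, from RefSeq on GRCm38.p6. Capitals mark the hexamer TGTTCT, or its complement AGAACA, the core of the corticosteroid response element.
Slc16a4, chr3:107290980-107291279, plus strand: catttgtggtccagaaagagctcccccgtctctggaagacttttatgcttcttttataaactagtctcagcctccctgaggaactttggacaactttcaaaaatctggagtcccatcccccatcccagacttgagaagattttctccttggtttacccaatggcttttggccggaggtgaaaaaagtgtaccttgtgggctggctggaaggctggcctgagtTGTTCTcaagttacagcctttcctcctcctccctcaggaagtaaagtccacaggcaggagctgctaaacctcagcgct
Slc2a8, chr2:32982034-32982333, minus strand: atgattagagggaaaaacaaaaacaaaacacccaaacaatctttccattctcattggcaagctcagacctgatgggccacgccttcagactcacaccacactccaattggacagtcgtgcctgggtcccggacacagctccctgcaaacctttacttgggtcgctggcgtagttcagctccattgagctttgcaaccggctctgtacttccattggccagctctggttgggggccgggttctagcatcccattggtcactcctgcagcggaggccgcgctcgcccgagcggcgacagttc
Slc35d1, chr4:103215127-103215426, minus strand: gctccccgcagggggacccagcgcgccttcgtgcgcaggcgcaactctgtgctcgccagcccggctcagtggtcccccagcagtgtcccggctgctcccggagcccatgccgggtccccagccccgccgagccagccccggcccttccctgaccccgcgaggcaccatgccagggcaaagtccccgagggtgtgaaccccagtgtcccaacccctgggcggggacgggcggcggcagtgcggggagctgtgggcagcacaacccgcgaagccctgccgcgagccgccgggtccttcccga

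The hexamer occurs once in the Slc16a4 window, beginning at position -28 from the start site, and in neither of the others. Windows of this kind were at hand for 102 of the 129 members, 135 in all. TGTTCT on either strand was in 11 of them (8.15%), against 11.4% of the 9106 windows of all genes with a signal of at least 200 and 19.0% of all 32851 windows. The whole palindrome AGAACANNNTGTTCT was in 0 member windows and in 3 of all windows. The E-box CACGTG was in 17.0% of member windows, against 10.7% at the same level of signal, and the GC box GGGCGG in 74.1% against 66.3%. The median member window was 63.3% G and C, against 61.7% at the same level and 52.7% over all windows. A match of letters is a description of the window, and no binding was measured.

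**Figure D2:**
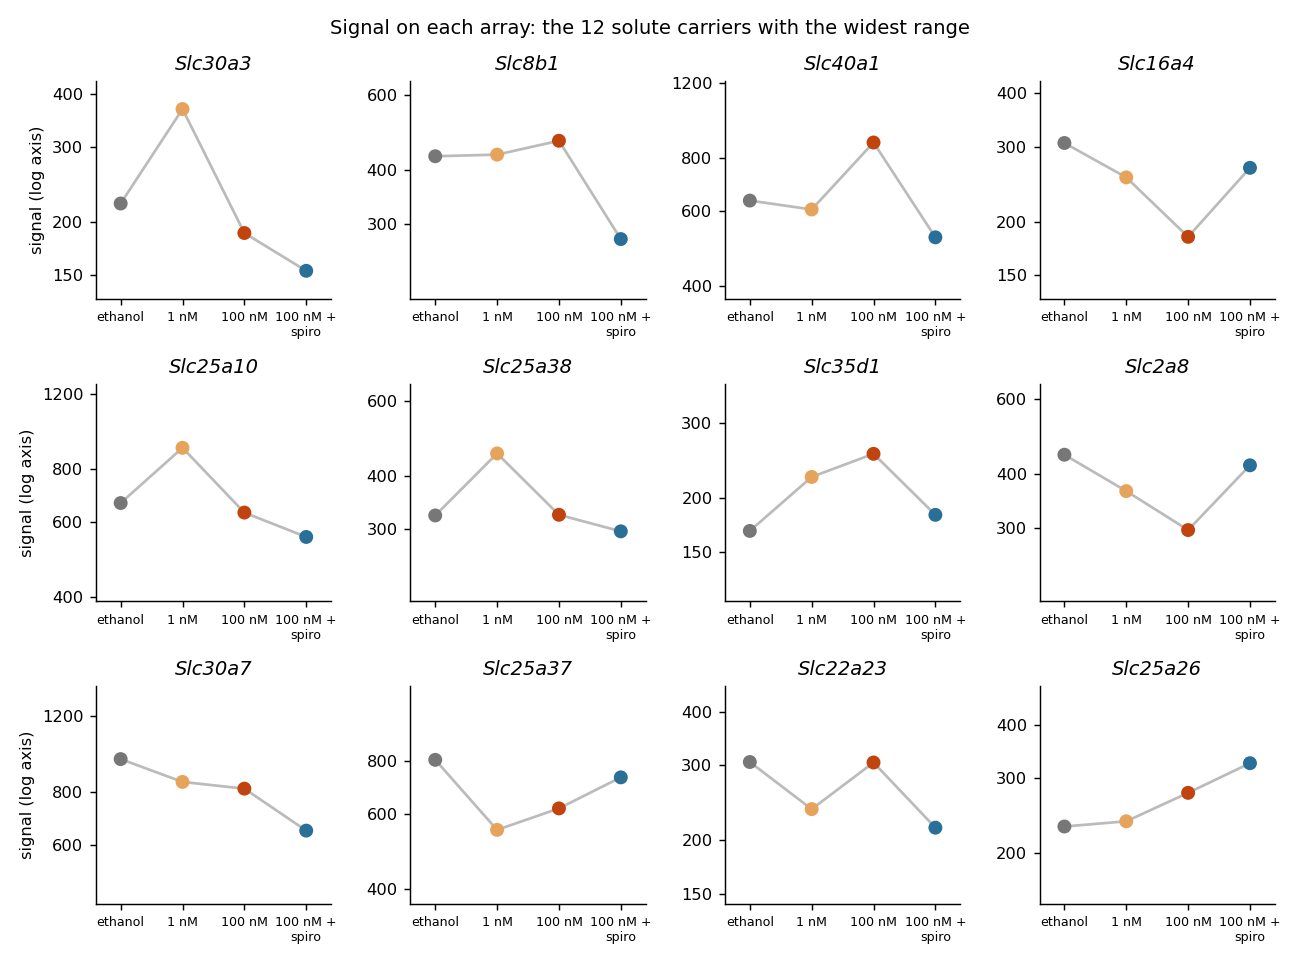
Signal on each of the 4 arrays for the 12 members with the widest range (log axis, the same fold span in each panel; lines join the arrays as a guide). Slc35d1 was highest and Slc2a8 and Slc16a4 lowest with 100 nM aldosterone, whereas Slc30a3, Slc25a10 and Slc25a38 were highest with 1 nM.

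Blocking MR before the hormone was set against the hormone alone at the same dose. Past 1.5-fold were 2 of 129 members, where 0.881% of all genes passed. Both were lower (0.498% of all genes were) and 0 were higher (0.382%). The median difference was 0.00 over members and over all genes. This comparison uses the same 100 nM array as the last, so the differences in the pair of comparisons are not independent.

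Slc40a1 encodes ferroportin, the iron exporter of the plasma membrane. Its signals were 635 with ethanol, 606 with 1 nM, 869 with 100 nM and 521 with spironolactone. The 100 nM array alone was high, by 1.37-fold over ethanol and 1.67-fold over spironolactone. The next brightest probe set gave 207, 289, 256.5 and 228, so that it was highest with 1 nM. In both probe sets 100 nM was above ethanol, by 0.45 and 0.31 on the log2 scale. The difference of spironolactone from 100 nM was -0.74 in the first and -0.17 in the second.

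Slc8b1 encodes NCLX, the sodium-calcium exchanger of the mitochondrial inner membrane. Its only probe set read 432, 436, 469.5 and 276, so the spironolactone array alone was low. It was 1.70-fold below 100 nM and 1.56-fold below ethanol. It was the 1 member past 1.5-fold between spironolactone and ethanol, where 0.753% of all genes passed in either direction, 0.429% lower and 0.325% higher.

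The lower dose was set against ethanol in the same way. Past 1.5-fold was 1 of 129 members, a higher one, where 1.1% of all genes passed (0.487% higher and 0.614% lower). This was Slc30a3, the zinc transporter ZnT3, known for loading zinc into synaptic vesicles. Its only probe set read 221 with ethanol, 368 with 1 nM, 189 with 100 nM and 154 with spironolactone. The 1 nM array alone was high, by 1.67-fold over ethanol. It was also what brought Slc30a3 to the level of 200, since the mean of the other 3 arrays was 186. Slc30a3 was also the 1 member past 1.5-fold between the doses (0.846% of all genes, 0.556% higher and 0.29% lower), 1.95-fold lower with 100 nM, and the 1 member whose range passed 2-fold (2.39-fold).

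A pair of mitochondrial carriers was also highest with 1 nM. Slc25a10, the dicarboxylate carrier, gave 666, 897, 632 and 554, and Slc25a38, a glycine carrier needed for haem synthesis, gave 323, 452, 324 and 297. In both the 1 nM array was at least 1.25-fold above each of the other arrays. That held for 3 members in all with Slc30a3, or 2.33%, where it held for 0.359% of all genes. Slc30a3 is a member only through that array, so its place in the count was favoured by the choice of members, and without it the count is 2. The dimmer probe set of Slc25a10 (mean signal 114) read 88.5, 109, 126 and 137. Over any array and direction 8 members (6.2%) lay at least 1.25-fold from the other 3 arrays, against 3.78% of all genes. Slc30a3 is again among the 8, and these shares are not matched for signal level. Ethanol was high in 1 (0.775%, against 0.545%), 100 nM high in 1 (against 0.556%) and low in 1 (against 0.556%), and spironolactone low in 2 (1.55%, against 0.522%). In 0 members was ethanol low (0.568% of all genes), 1 nM low (0.51%) or spironolactone high (0.243%).

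Past 1.5-fold in at least 1 of the 5 comparisons were 6 members (4.65%), where 2.91% of all genes were, and the counts by substrate given for any comparison are to be read against that share. At 2-fold, 0 members passed in any of the 5 comparisons. The share of all genes was 0.116% for 100 nM against ethanol, 0.058% for 1 nM against ethanol, 0.0927% for spironolactone against 100 nM, 0.058% for spironolactone against ethanol and 0.0348% between the doses. A lower fold of 1.25 was added after the data were seen. The comparisons share arrays, so their counts are not independent.

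At 1.25-fold, 9 members differed between 100 nM and ethanol (6.98%, against 6.17% of all genes). Higher were 5, Slc16a10, Slc25a16, Slc33a1, Slc35d1 and Slc40a1 (background 2.84%), and lower were 4, Slc16a4, Slc25a37, Slc2a8 and Slc37a4 (background 3.33%). Between 1 nM and ethanol 10 differed (7.75%, against 6.93%). Higher were 6, Slc25a10, Slc25a38, Slc30a3, Slc33a1, Slc35d1 and Slc35e4 (3.11%), and lower were 4, Slc22a23, Slc25a37, Slc37a4 and Slc4a2 (3.82%). These shares lay near the background.

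Between spironolactone and 100 nM also 10 differed (7.75%, against 7.14%). Lower were 8, Slc16a10, Slc22a23, Slc26a2, Slc30a7, Slc31a2, Slc35d1, Slc40a1 and Slc8b1 (6.2%, background 3.78%), and higher were 2, Slc16a4 and Slc2a8 (background 3.36%). Between spironolactone and ethanol 7 differed (5.43%, against 6.02%), with Slc25a26 and Slc25a32 higher (background 2.54%) and Slc22a23, Slc30a3, Slc30a7, Slc37a4 and Slc8b1 lower (3.48%). Between the doses 8 differed (6.2%, against 6.06%), with Slc22a23 and Slc40a1 higher in 100 nM (3.18%) and Slc16a4, Slc25a10, Slc25a38, Slc30a3, Slc35e4 and Slc38a7 lower (2.89%).

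**Figure D3:**
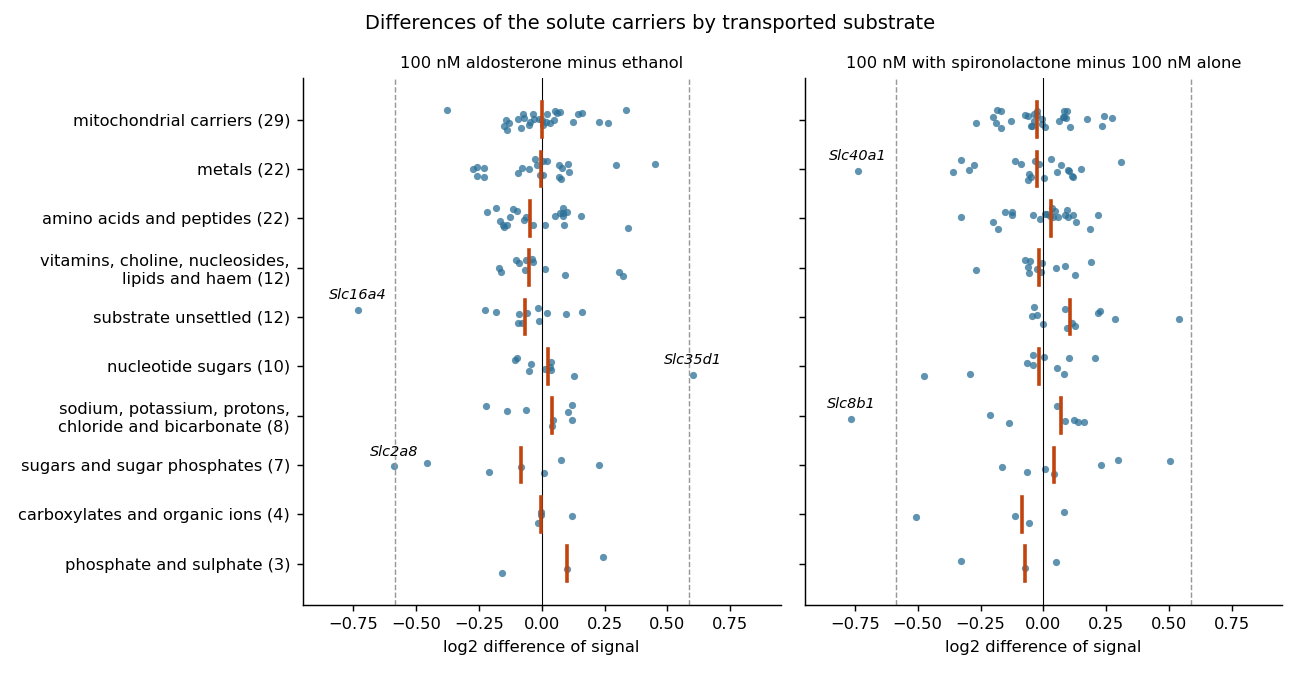
Log2 difference of signal for each of the 129 solute carriers (points), by transported substrate with the number of members in brackets, for 100 nM aldosterone minus ethanol (left) and spironolactone minus 100 nM aldosterone alone (right). Red bars mark the median of each class and dashed lines a 1.5-fold difference; 3 and 2 members lie beyond them.

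The class of mitochondrial carriers was the largest, with 29 members. It took in every member of the SLC25 family, including Slc25a46, to which no substrate was assigned. The class was set by family and not by the site of each protein. Its median difference between 100 nM and ethanol was 0.00. The 3 members with the brightest probe sets hardly differed in those probe sets. Slc25a3, which imports the phosphate used for ATP synthesis, had signals of 22602, 20139, 20489.8 and 21827. The ADP/ATP carrier Slc25a4 had 17388, 16332, 17264 and 17209, and its relative Slc25a5 had 15219.5, 14529, 15456.5 and 15191. The 8 probe sets of Slc25a5 at the level did not agree for 100 nM against ethanol. Their differences ran from -0.46 (mean signal 2595) to 0.36 (mean signal 2059). Signals of different probe sets are not compared with each other, since each probe set binds with its own strength.

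Iron import into mitochondria was represented by both mitoferrins. Slc25a37 had 804, 551, 618 and 731, highest with ethanol and lowest with 1 nM, and 100 nM lay 0.38 below ethanol on the log2 scale, the lowest difference of the class. Slc25a28 had 838, 759.8, 799 and 765, a range of 1.1-fold. Slc25a16, a carrier linked to coenzyme A, was the highest of the class, with 834, 941, 1052 and 916 and a difference of 0.34 between 100 nM and ethanol. Slc25a26, which imports S-adenosylmethionine, gave 231, 238, 277 and 325, highest with spironolactone by 0.49 over ethanol. Its other probe set (mean signal 119) differed there by -0.11. The aspartate-glutamate carriers Slc25a12 and Slc25a13 differed by 0.03 and 0.15 between 100 nM and ethanol, the citrate carrier Slc25a1 by 0.05 and the carnitine-acylcarnitine carrier Slc25a20 by -0.13.

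The 22 carriers of amino acids and peptides had a median difference of -0.05 between 100 nM and ethanol, and 0.03 between spironolactone and 100 nM. Slc38a2, which takes up small neutral amino acids with sodium and is known to respond to amino acid starvation and osmotic stress, had 12138, 11587, 11114 and 11366. The cationic amino acid transporter Slc7a1 had 6629, 6769.6, 6319.6 and 7186. Slc3a2, the heavy chain shared by several exchangers, had 5412, 5654, 6031 and 5246, and its light chain Slc7a5 had 3762, 3775, 3792 and 3476. The chains were therefore within 1.15-fold and 1.09-fold over all arrays.

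Past 1.5-fold in any comparison were 0 of the 22, and with 2.91% of all genes past it a class of this size need hold none. Its highest member for 100 nM was Slc16a10, a transporter of aromatic amino acids, with 338, 354, 429.7 and 342. The 100 nM array alone was high, by 0.34 over ethanol, but the next brightest probe set differed by -0.13. The lowest was Slc36a1, a proton-coupled lysosomal amino acid transporter, with 509, 409, 438 and 434, and here ethanol was the high array. Its relative Slc36a4 had 652, 530.1, 576 and 630.3. The lysosomal sensor Slc38a9, which signals amino acid supply to mTORC1, differed by -0.15 between 100 nM and ethanol.

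The 22 metal carriers had a median difference of 0.00 between 100 nM and ethanol. Among them 2, Slc40a1 and Slc30a3, passed 1.5-fold in some comparison (2.91% of all genes did), but Slc30a3 is a member only through its 1 nM array. The zinc importers Slc39a6 and Slc39a7 had 6292, 6383, 6268 and 6725, and 4087, 3909.7, 4099 and 4254. The zinc exporter Slc30a4 had 3403, 3777, 3569.5 and 3524. In these brightest probe sets each spanned 1.11-fold or less. The second probe set of Slc39a6 (mean signal 455) read 395, 551, 388 and 508. It was above ethanol by 0.48 with 1 nM and by 0.36 with spironolactone. Slc30a7, which loads zinc into the Golgi, had 953, 843, 813 and 648, lowest with spironolactone by 0.56 below ethanol. Its second probe set, of almost the same mean signal (799 against 807), differed there by 0.01. The copper transporter relative Slc31a2 had 530.5, 645, 652 and 508, higher in both arrays with aldosterone alone. Its second probe set differed by -0.32 and -0.13 from ethanol at 1 nM and 100 nM.

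Among iron carriers, Slc11a2 (DMT1), the ferrous iron importer, had 540.5, 476, 453 and 489.6. With 100 nM it was 0.26 below ethanol, and its second probe set was 0.34 below, but the third was 0.16 above. Slc39a14, which also imports iron, differed by 0.11, and ferroportin by 0.45 as given above. The lowest metal carrier for 100 nM was the zinc importer Slc39a3, at -0.27, with 279, 284, 231 and 247. Its dimmer probe set (mean signal 113) went the other way, at 0.67. The main zinc exporter of the plasma membrane, Slc30a1, had 419, 358, 397 and 380.3. The metallothioneins Mt1 and Mt2, which bind zinc and copper, differed by 0.00 and 0.02, and the transferrin receptor Tfrc by 0.01.

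Of the 8 carriers of sodium, potassium, protons, chloride and bicarbonate, 1, Slc8b1, passed 1.5-fold in any comparison (2.91% of all genes did). The median difference between 100 nM and ethanol was 0.04. The basolateral sodium-potassium-chloride cotransporter Slc12a2 (NKCC1) had 3952, 4035, 3789.8 and 4232. The anion exchanger Slc4a2 had 744.5, 595, 638 and 663, with ethanol the high array and the lowest difference of the class for 100 nM (-0.22). The bicarbonate cotransporter Slc4a4 had 601, 658, 619.9 and 657. The potassium-chloride cotransporters Slc12a4 and Slc12a7 differed by -0.14 and 0.10, and their relative Slc12a9 by 0.12, the highest of the class, though by -0.40 in its dimmer probe set (mean signal 53.1).

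The 7 sugar carriers had a median difference of -0.08 for 100 nM against ethanol. Slc2a8, described above, was the lowest of the class, at -0.59. It was the 1 member of the class past 1.5-fold in any comparison (2.91% of all genes were). Slc5a3, the osmotically regulated myo-inositol cotransporter, had 3039, 3150.5, 2625 and 3222, and the 100 nM array alone was low, by 0.21 below ethanol. Its second probe set read 405, 377, 363 and 339.9. There 100 nM was also below ethanol, by 0.16, but spironolactone was lower still, so 100 nM was not the lowest array. Slc37a3 had 1173, 1314, 1237 and 1273, and the Golgi sugar carrier Slc50a1 had 948, 929, 953 and 912. Slc37a4, the glucose-6-phosphate translocase of the endoplasmic reticulum, had 301 with ethanol and 217, 219 and 220.1 on the other arrays. Ethanol alone was high there, by at least 0.45 on the log2 scale. The sialic acid exporter Slc17a5 was the highest of the class, at 0.23.

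The class of nucleotide sugar carriers, which supply the Golgi and endoplasmic reticulum for glycosylation, held 10 members of the SLC35 family. Not all 10 carry nucleotide sugars. Their median difference was 0.02, and 1 of them, Slc35d1, passed 1.5-fold in any comparison (2.91% of all genes did). As given above, Slc35d1 is a member only through its 100 nM array. Slc35b1 had 4225, 4033, 4083 and 4093, the UDP-N-acetylglucosamine carrier Slc35a3 had 2933, 3199, 3011 and 3189, and the CMP-sialic acid carrier Slc35a1 had 1548, 1487, 1445 and 1502. The lowest member was Slc35b3, a carrier of the sulphate donor PAPS and not of a nucleotide sugar, at -0.10.

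The carriers of carboxylates and other organic ions (4 members) and of phosphate and sulphate (3 members) had median differences of 0.00 and 0.10 between 100 nM and ethanol. The lactate and pyruvate transporter Slc16a1 (MCT1) had 7477, 7479, 7468 and 7911, and its chaperone Bsg differed by -0.05 between 100 nM and ethanol. The carnitine transporter Slc22a5 had 454, 488, 449 and 432, and the polyamine carrier Slc18b1 had 428, 402, 465 and 429.9. The orphan Slc22a23 had 305, 237, 305 and 214, low with 1 nM and with spironolactone. The phosphate importers Slc20a1 and Slc20a2 had 3008, 2726, 2699 and 2791, and 1095, 1128, 1175 and 1115. Slc26a2, which takes up sulphate, had 415, 449.7, 491 and 391, highest with 100 nM, but its second probe set differed by -0.06 between 100 nM and ethanol.

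Carriers of vitamins, choline, nucleosides, lipids and haem (12 members) had a median difference of -0.05, with 0 past 1.5-fold in any comparison (2.91% of all genes were). The choline transporter relatives Slc44a2 (2408, 2421, 2429.8 and 2337) and Slc44a1 (1398, 1409.7, 1364 and 1359) spanned 1.04-fold each. Slc33a1 had 975, 1354, 1219 and 1013, higher with both doses of aldosterone alone than with ethanol or spironolactone, by 0.47 and 0.32 over ethanol. It has a single probe set. The lysosomal nucleoside carrier Slc29a3 was low with ethanol alone (318, against 381 to 393), but its dimmer probe set (mean signal 56.3) read 134, 24.7, 24.4 and 125, low with both doses of aldosterone alone. The haem carrier Slc48a1 was the lowest of the class, at -0.17, while its second probe set differed by -0.05. Of the 12 members with no settled substrate, 1, Slc16a4, passed 1.5-fold in any comparison (2.91% of all genes did). Slc35f5 had 1513, 1498, 1455 and 1429, Slc35e2 had 858, 829.5, 814 and 949.6, and Slc10a7 was the highest for 100 nM, at 0.16, with -0.16 in its next probe set (mean signal 100.5).

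Whether a difference returned in another probe set of the same gene could be asked for the 44 members with a second probe set at a mean signal of at least 200. Both are read from the same RNA, so this checks the probe set and not the culture. For 100 nM against ethanol, 3 of the 44 differed by at least 1.2-fold in the brightest probe set, and in 1 of them, Slc40a1, the second did so in the same direction. Over all 3420 genes with such a pair, 227 differed by that much, and the second went the same way in 126 and passed 1.2-fold in 35. For spironolactone against 100 nM the count was 7 members, with the second in the same direction in 2 and past 1.2-fold in 0, against 164 and 43 of 263 over all genes. For 1 nM against ethanol it was 1 member, with 0 in the same direction, against 152 of 259 over all genes, of which 40 also passed 1.2-fold. For spironolactone against ethanol it was 5 members, with 1 in the same direction and 0 past 1.2-fold, against 137 and 40 of 229. Between the doses it was 3 members, with 1 in the same direction and 0 past 1.2-fold, against 119 and 32 of 217. Across the 44 members, which were read on the same arrays and are not independent replicates, the Pearson correlation of first and second differences was 0.27 for 100 nM against ethanol, 0.03 for 1 nM against ethanol, -0.07 for spironolactone against 100 nM, 0.00 for spironolactone against ethanol and -0.17 between the doses. Across all genes it was 0.10, 0.10, 0.15, 0.11 and 0.11.

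**Figure D4:**
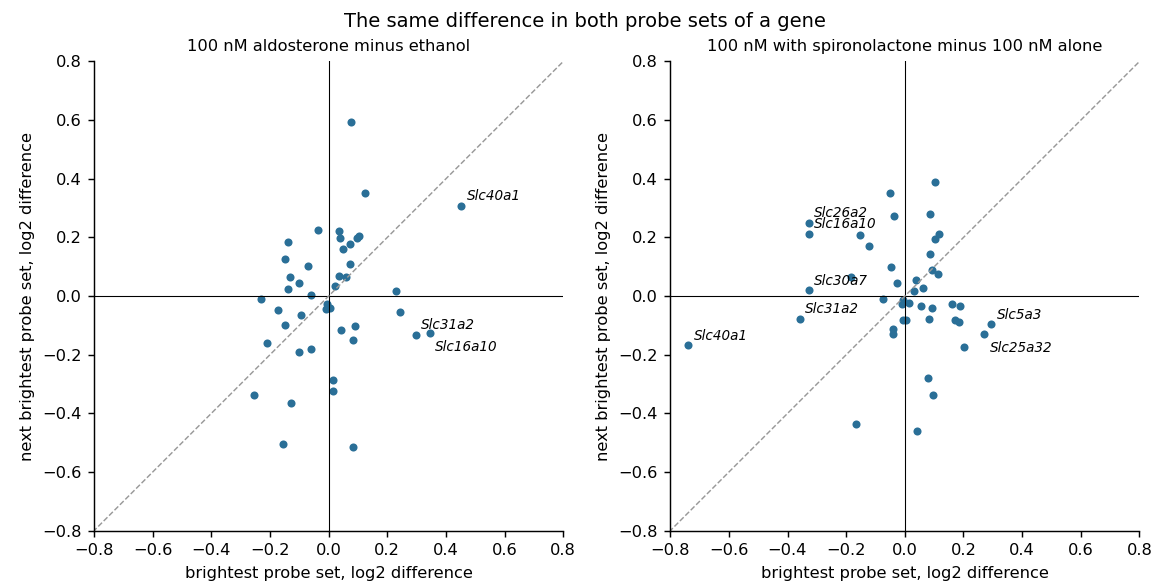
Log2 difference in the brightest probe set (horizontal) and in the next brightest (vertical) of the 44 members with 2 probe sets at a mean signal of at least 200, for 100 nM aldosterone minus ethanol (left) and spironolactone minus 100 nM (right). Points on the dashed line would have equal differences; members past 1.2-fold in the brightest probe set are named, and only Slc40a1 passes it in both, on the left.

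Partners and neighbours of these carriers, a list of 30 genes of which 25 were found and 23 had a signal of at least 200, were read in the same way. Between 100 nM and ethanol 0 of the 23 passed 1.5-fold (0.927% of all genes did) and the median difference was 0.02. The sodium pump subunit Atp1b1, which sets the gradient many carriers use, had 4622, 5028, 5465 and 4864, higher with 100 nM by 0.24. The mitochondrial pyruvate carrier subunit Mpc1 had 3982, 3888, 3795 and 3939. The lysosomal cystine exporter Ctns was the 1 gene of the 23 past 1.5-fold in any comparison, near the share of all genes (2.91%), with 286, 174, 244 and 182, lower with 1 nM (-0.71) and with spironolactone (-0.65) than with ethanol.

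Close to the level that chose the members, the 3 dimmest were Slc35d1 (mean signal 204), Slc30a3 (220.4) and Slc37a4 (237). Just outside lay Slc25a47 (179.8), Slc7a4 (174.8) and Slc25a45 (174).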

How the data were processed

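Total RNA (250 ng per culture) was labelled and hybridised to an Affymetrix 3' array, 1 per treatment. Intensity on a linear scale was deposited for every probe set. The submitters' processing notes name MAS5. Its version, scaling target and detection calls were not given in the sources used here. Of 45101 probe sets, 34958 carried 1 gene symbol in the platform annotation and 932 several; only the former were named. Of the latter, 6 included a solute carrier. All 129 members were found in RefSeq by Entrez identifier, with 0 symbols changed. Each gene is represented by its brightest probe set by mean log2 signal. Differences are of log2 intensity, with no pseudocount or further scaling. Members and substrate lists were chosen with earlier results of these data known. Members are counted past 1.5-fold beside all 8628 genes at a mean signal of at least 200. Named members are the 3 brightest per class, those past 1.5-fold, the 12 with the widest range, the highest and lowest per class for 100 nM aldosterone, and those next to the level; others named in the text were chosen after their values were seen. Alternatives were quantile normalization, median centring, other probe sets, levels of 100 and 400, and other folds. Counting was tested on simulated data. Python 3.11.15, NumPy 2.4.6 and pandas 2.3.3 were used.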

Additional observations from a re-analysis of the deposited data

How the results depend on the processing

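No paired analysis was possible because each treatment has 1 array, and for the same reason no replicate could be left out. In the order 100 nM against ethanol, 1 nM against ethanol, spironolactone against 100 nM, spironolactone against ethanol, and 100 nM against 1 nM, the counts past 1.5-fold were 3, 1, 2, 1 and 1. With the second brightest probe set (44 members) they were 1, 0, 0, 0 and 0, where 1.23%, 1.26%, 1.23%, 1.23% and 1.14% of all genes passed. With a level of 100 (156 members) they were 5, 3, 3, 2 and 2 (all genes: 1.86%, 2.28%, 2.0%, 1.89% and 1.81%), and with a level of 400 (99 members) 0, 0, 1, 0 and 0 (all genes: 0.425%, 0.638%, 0.482%, 0.411% and 0.454%). The share of all genes thus moved with the level too. At 2-fold they were 0 throughout, and at 1.25-fold, added after seeing the data, 9, 10, 10, 7 and 8. With the median over probe sets the count for spironolactone against 100 nM was 1, without Slc40a1 (-0.45). Under quantile normalization and median centring all 5 counts stayed within 1.5-fold of these; under quantile normalization 2 members were past 1.5-fold for 100 nM against ethanol.

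Class medians were judged against the SD of all 8628 genes in the same comparison, 0.166 to 0.177, for want of replicates. This SD is of single genes and is wide for a median over several members, so staying within it is a weak check. Of 295 alternative values, 284 stayed within it and 11, all with the second brightest probe set of 1 to 6 members, did not. For 100 nM against ethanol these were ions -0.15, unsettled substrates 0.20 and sugars 0.22. For 1 nM against ethanol they were metals 0.14, unsettled substrates 0.41 and sugars 0.15. For spironolactone against 100 nM they were phosphate 0.12 and sugars -0.28, and against ethanol phosphate 0.19, unsettled substrates 0.47 and vitamins 0.20. The cause was not tested. Of 190 alternative values of the 12 members with the widest range, 12 moved by more, all of Slc30a7 or Slc40a1 and all with other probe sets. Among the 12, only Slc30a7 and Slc40a1 have a second probe set at the level. For the rest the median over probe sets was the main value itself and could not move. Of the 6 members past 1.5-fold, only Slc40a1 has such a probe set, so the second brightest was not used for the other 5. Dimmer probe sets of Slc16a4 (0.42) and Slc35d1 (-0.15) had the opposite sign for 100 nM against ethanol. Signal near the level limits the dimmest members most.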

Other observations

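Some probe sets that did not represent their gene differed more than those that did. The second probe set of Slc37a3, a sugar phosphate carrier relative, had signals of 287, 380.4, 433 and 315 with ethanol, 1 nM, 100 nM and spironolactone, highest with 100 nM by 0.59 over ethanol. The brightest differed there by 0.08. That of Slc25a30, a mitochondrial carrier, differed by 0.35 for 100 nM against ethanol and by -0.44 for spironolactone against 100 nM. That of Slc38a2 differed by -0.43 for 1 nM and -0.36 for 100 nM against ethanol, where the brightest differed by -0.07 and -0.13. These values were picked out after they were seen and have no replicate check.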
